A study of Cavia porcellus with 30 samples.

Results

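The 7 transcripts of guinea pig kidney described here were those assigned to the complex I subunits that the mitochondrial genome encodes, ND1, ND2, ND3, ND4L, ND4, ND5 and ND6. They are 7 of the 25824 transcripts in the deposited tables, and all 7 passed the filter on low counts that left 19729 transcripts for testing. The transcripts were chosen by identifier: ND1 is ENSCPOT00000017558.1, ND2 is ENSCPOT00000017562.2, ND3 is ENSCPOT00000017577.2, ND4L is ENSCPOT00000017579.1, ND4 is ENSCPOT00000017580.1, ND5 is ENSCPOT00000017584.2 and ND6 is ENSCPOT00000017585.2. The tables pair no transcript with a gene, so the gene names are inferred from the order of the identifiers, which follows the order of genes along the mitochondrial genome. A further 6 identifiers in the same run were assigned to COX1, COX2, ATP8, ATP6, COX3 and CYTB by the same reasoning and served as the comparison list of other mitochondrial transcripts.

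RNA was sequenced from powdered whole kidney of 30 male Hartley guinea pigs, 5 in each of 6 groups. Animals received an injection of saline vehicle, of 1.00 mg/kg mercuric chloride (the low dose) or of 1.50 mg/kg mercuric chloride (the high dose), and the kidney was taken at 9 or 33 h, with a vehicle group at each time. The design asks how the renal transcriptome responds to a nephrotoxic metal salt at a milder and a stronger dose, early and late. Animals are named by the number in their label. The transcripts were not matched to marker genes here, so the tissue rests on the labels. In whole kidney, fewer cells of a type and less RNA per cell cannot be told apart.

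Complex I, the NADH:ubiquinone oxidoreductase, takes electrons from NADH, passes them to ubiquinone and pumps protons across the inner mitochondrial membrane. Its membrane arm is built on the mitochondrially encoded subunits, and the rest of the complex is encoded in the nucleus. Both strands of the mitochondrial genome are transcribed as long precursors that are cut, largely at tRNA genes, into single messages. ND6 alone among these genes is read from the opposite (light) strand, and ND4L and ND4 are known to share a single message. The proximal tubule, the main site of injury by mercuric chloride, is among the cell types richest in mitochondria.

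The deposited transcript lengths, which the choice of identifiers did not use, were as follows: ND1 had 960 nt, ND2 1044 nt, ND3 346 nt, ND4L 297 nt, ND4 1378 nt, ND5 1812 nt and ND6 531 nt. The lengths of ND3 and ND4 exceeded a whole number of codons by 1 base, as did that of COX3. Messages of these genes are known in mammals to end in an incomplete stop codon that polyadenylation completes. The libraries were enriched for polyadenylated RNA, so a level also reflects the tail of the message. The kit kept strand information, but the setting used in counting was not given in the sources used here, so reads of ND6 and of RNA from the opposite strand cannot be told apart, and nuclear copies of mitochondrial genes may share reads with all 7.

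Total estimated counts lay between 23134713.4 and 36072326.7 per animal, with a median of 27824746.7. In vehicle animal 59 at 9 h a single transcript outside the mitochondrial list took 13.7% of all counts, and the highest such share in any other animal was 4.97%. The factors of the trimmed mean of M-values (TMM) scaling lay between 0.952 and 1.08 in the other animals and were 0.887 and 0.819 in vehicle animals 58 and 59 at 9 h. The results at 9 h are given below also with single animals left out and with vehicle animals 31 and 32 or 58 to 60 as the only controls; animals 58 and 59 were not left out together while the others stayed.

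The 7 transcripts were among the most abundant in the kidney. Levels are compared between genes in TPM, a unit that corrects for transcript length and library total. In the vehicle group at 33 h, ND3 ranked 10, ND6 11, ND2 12, ND1 14, ND4 15, ND4L 17 and ND5 27 among all 25824 transcripts. Mean TPM (± SD, n = 5) was 13540.0 ± 837 for ND3, which joins the membrane arm to the peripheral arm, and 13180.0 ± 558 for ND6. ND2, an antiporter-like subunit of the proton-pumping arm, had 12392 ± 575 TPM, and ND1, which forms part of the ubiquinone site, had 12246 ± 661 TPM. The ranges of neighbours in this order, ND3 and ND6, ND6 and ND2, and ND2 and ND1, overlapped between animals. Below them came ND4 at 10351 ± 418 TPM, ND4L at 8495 ± 521 TPM and ND5 at 4753 ± 574 TPM, each with all animals below those of the transcript before it. ND4 and ND5 are the other antiporter-like subunits, and ND4L lies in the proton path between ND6 and ND2.

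The order was similar in the other groups, in which ND5 was the lowest and ND4L the next lowest. In every group all 5 ND5 values lay under all 5 ND4L values, and the ratio of mean ND4L to mean ND5 TPM was between 1.66 in low-dose animals at 9 h and 2.08 in high-dose animals at 33 h. ND6, the light-strand transcript, stood first or second in each group. In the high-dose group at 33 h, ND3 (10910.0 ± 782 TPM) was above ND6 (9010.2 ± 422 TPM) in all animals, while ND1, ND2 and ND4 had nearly the same mean level of 8018 ± 872, 7926 ± 994 and 7880 ± 681 TPM (SD, n = 5) and overlapping ranges.

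**Figure D1:**
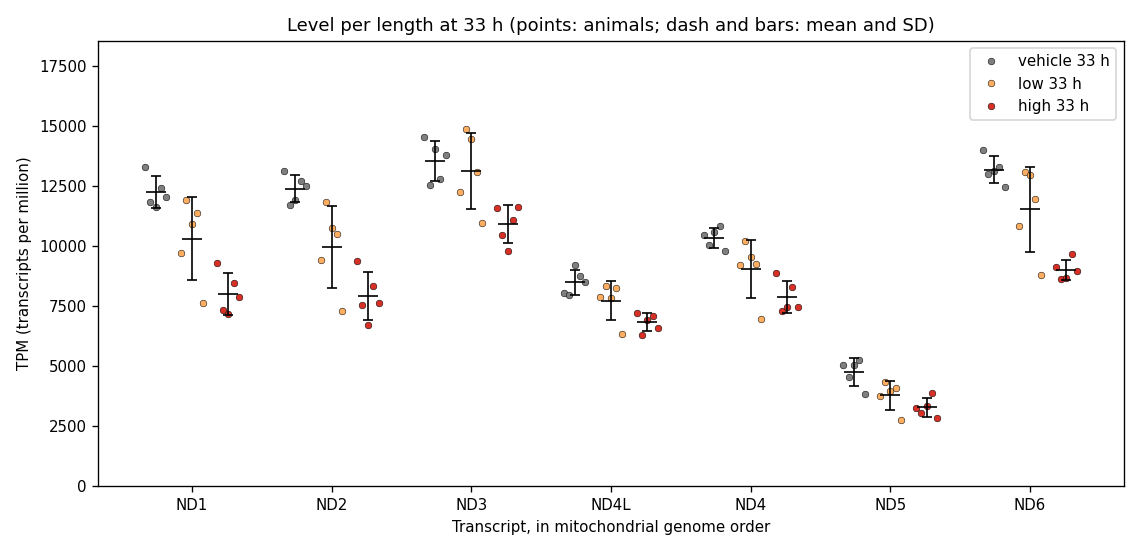
TPM (level per length, vertical axis) of the 7 transcripts in mitochondrial genome order at 33 h, with 1 point per animal and the mean and SD (n = 5) in vehicle, low-dose and high-dose animals. ND5 is the lowest in each group, and the high-dose animals sit under the vehicle animals for every transcript except 1 high-dose animal for ND5.

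Within a group, the transcripts varied together from animal to animal. After each group's mean was removed, Pearson's r between log2 CPM (counts scaled to the TMM-adjusted library total) of pairs of members was between 0.625 for ND3 and ND5 and 0.971 for ND1 and ND2 over 30 animals. All values of an animal share 1 library and its scaling, so these coefficients are given as a description. The spread was wide in the vehicle group at 9 h, in which ND4 had a coefficient of variation of 21.7% in CPM and ND6 of 13.7%. In the vehicle group at 33 h the same values were 6.07% and 5.80%.

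At 33 h all 7 transcripts were lower in high-dose than in vehicle animals. The edgeR quasi-likelihood test, with Benjamini-Hochberg adjustment over 19729 transcripts and a threshold of 0.1, called 7 of 7 lower, against 24.1% of all tested transcripts called lower. The median log2 fold change of the 7 was -0.58, and that of all tested transcripts was -0.0028. In CPM, the values of the 7 transcripts in all high-dose animals were below those in all vehicle animals, which held for 15.0% of all tested transcripts. Per length, in TPM, it held for 6 of the 7, against 13.2% of all tested transcripts, since ND5 in high-dose animal 56 (3888 TPM) was slightly above vehicle animal 47 (3846 TPM).

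ND1 measured 8350.1, 7576, 7723, 7871 and 7397 CPM in vehicle animals 43 to 47. In high-dose animals 53 to 57 it measured 6056, 4482.5, 4349, 5038 and 4973.5 CPM. All high-dose values were thus under the lowest vehicle value, and animal 53 came nearest to it. The log2 fold change was -0.65 (SE 0.0825, edgeR adjusted p = 9.4e-05), a decrease by 36.4%.

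ND2 had the largest estimated decrease of the 7. It measured 9155, 8329, 8816, 8989 and 8533 CPM in the vehicle animals. The high-dose animals had 6811, 5138, 4551, 5539 and 5362 CPM. Animal 53 was again the highest and animal 55 the lowest, without overlap with the vehicle group. The log2 fold change was -0.69 (SE 0.0901, edgeR adjusted p = 0.000124).

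ND6 had the smallest standard error. Vehicle animals measured 3763.5, 3602.5, 3726, 3612 and 3238 CPM. High-dose animals measured 2524.5, 2256.5, 2264, 2469 and 2407 CPM. The high-dose values lay within a narrow band, with a coefficient of variation of 5.05%, under every vehicle value. The log2 fold change was -0.60 (SE 0.0511, edgeR adjusted p = 7.11e-06), inside the range of the 6 heavy-strand transcripts. Since opposite-strand RNA may share these reads, this is not a separate measure of the light strand.

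ND5 measured 6783, 6192.5, 7223, 7187 and 5078 CPM in vehicle animals and 4591, 4003, 4358, 4964 and 3844 CPM in high-dose animals. Vehicle animal 47 stood under the other vehicle animals and only slightly above high-dose animal 56. The log2 fold change was -0.58 (SE 0.103, edgeR adjusted p = 0.00089), with the largest standard error of the 7.

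ND4 and ND4L, which share a message, fell by similar amounts. ND4 measured 10261, 10002, 10988, 10756 and 9412 CPM in vehicle animals and 9079, 6966.5, 7091, 7697 and 7360.4 CPM in high-dose animals, with a log2 fold change of -0.44 (SE 0.0736, edgeR adjusted p = 0.000677). ND4L measured 803, 855, 922, 903 and 797 CPM in vehicle animals and 743, 595, 647, 663 and 633 CPM in high-dose animals, with a log2 fold change of -0.39 (SE 0.0648, edgeR adjusted p = 0.000612). The groups did not overlap for either transcript.

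ND3 had the smallest estimated decrease. It measured 1888, 1736, 1871, 1706 and 1699 CPM in vehicle animals and 1549, 1306, 1210.3, 1357 and 1469.6 CPM in high-dose animals. The log2 fold change was -0.38 (SE 0.0671, edgeR adjusted p = 0.000983), or a fall by 23.0%. Its 95% interval was -0.53 to -0.23, and that of ND2 was -0.88 to -0.49. Both transcripts were measured in the same libraries, so these intervals do not test the difference between them.

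**Figure D2:**
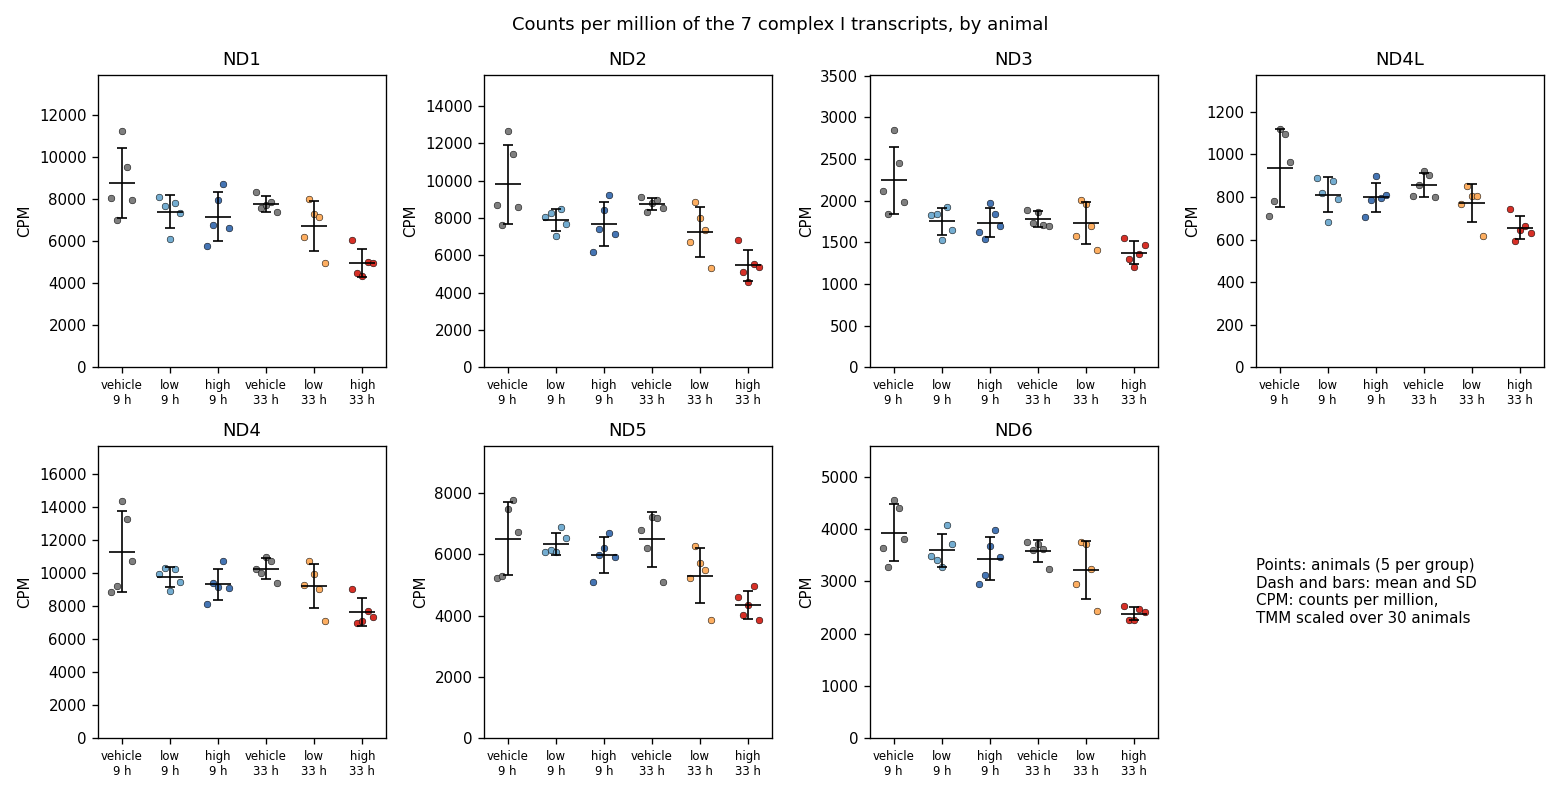
CPM (scaled counts, vertical axes from 0) of each transcript in the 6 groups, with 1 point per animal and the mean and SD (n = 5). The high-dose animals at 33 h lie under all vehicle animals of that time in each panel, and the SD of the vehicle animals at 9 h is the widest of the groups for each transcript other than ND6.

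The call on all 7 transcripts at 33 h was kept in the 20 alternative settings and left-out animals tried, with log2 fold changes between -0.77 and -0.28, while 17.4% to 27.2% of all tested transcripts were called lower. The smallest decreases were those with library totals unadjusted by TMM, where the median of all tested transcripts itself moved to 0.0999 and that of the 7 was -0.48. The other 6 mitochondrial transcripts were also called lower, 6 of 6, with log2 fold changes between -0.73 for COX1 (a catalytic subunit of cytochrome c oxidase) and -0.30 for ATP6 (the proton channel subunit of ATP synthase) and a median of -0.49. The 7 and the other 6 were not tested against each other.

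The low dose gave no call at 33 h. The number of members called was 0 of 7 by edgeR (background 0.421% called lower). An unadjusted p under 0.05 was found for 1 of 7 members and for 3120 of 19729 tested transcripts, so 1 of 7 is near the background share. The count was also 0 by DESeq2 (3.44% of all transcripts called lower) and by limma on log2(TPM + 1) (0.872%) or log2(TPM + 0.1) (0.821%). The log2 fold changes were nonetheless all negative, from -0.30 (95% interval -0.61 to 0.0047, adjusted p = 0.323) for ND5 to -0.051 (-0.27 to 0.17, adjusted p = 0.854) for ND3, with a median of -0.17 against 0.00024 for all tested transcripts. ND1 measured 6226, 8033.5, 7311, 7149.7 and 4978 CPM in low-dose animals 48 to 52. ND6 measured 2942.5, 3755, 3709.6, 3237 and 2437 CPM in the same animals. Animal 52 was the lowest of its group for all 7 transcripts, and animal 49 lay within or above the vehicle range for all 7. Without animal 52 the median log2 fold change of the members was -0.09, and that of ND3 was 0.016. Without animal 49 1 transcript, ND2, was called lower, where 5.32% of all tested transcripts were. The other mitochondrial transcripts had 0 of 6 called.

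Between the doses at 33 h, 5 of 7 transcripts were lower at the high dose by edgeR, ND1, ND2, ND3, ND4L and ND6 (background 15.0% called lower). The largest differences were in ND1, with a log2 fold change of -0.44 (SE 0.135, edgeR adjusted p = 0.0431), and ND6, with -0.44 (SE 0.112, edgeR adjusted p = 0.0233). ND4 (-0.28, adjusted p = 0.114) and ND5 (-0.29, adjusted p = 0.127) had the same sign and did not pass. The other mitochondrial transcripts were called lower in 6 of 6. For 0 of 7 members were all high-dose animals below all low-dose animals. Such a separation held for 7.75% of all tested transcripts, so 0 of 7 is near the background share. Low-dose animal 52 was below at least 1 high-dose animal for all 7. For ND2 low-dose animal 48, at 6746 CPM, was also below high-dose animal 53 at 6811, and for ND4 low-dose animal 51, at 9070 CPM, was also below animal 53 at 9079. The count of calls changed with single animals: it was 7 without low-dose animal 52, 6 without high-dose animal 53, 4 without low-dose animal 48, 1 without high-dose animal 54, 2 without low-dose animal 49 or 50 or high-dose animal 55 or 56, 3 without low-dose animal 51 or high-dose animal 57. Over the left-out animals 11.4% to 16.6% of all tested transcripts were called lower. The count was 7 with DESeq2 (16.9% of all transcripts called lower), 6 with all 30 animals in one fit (15.5%) and 0 with limma on log2(TPM + 0.1) (10.9%).

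**Figure D3:**
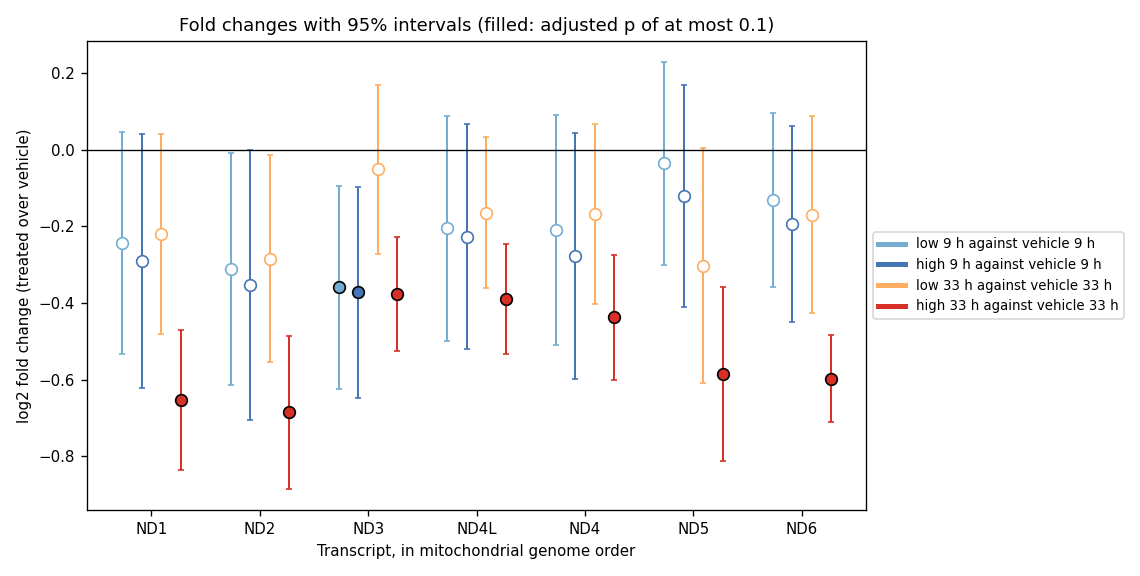
Log2 fold change (vertical axis, treated over vehicle) of each transcript in the 4 dose comparisons, with 95% intervals from the edgeR fit and filled points at an adjusted p of at most 0.1. All 7 points of the high dose at 33 h are filled, and of the others only ND3 at both doses at 9 h.

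At 9 h, ND3 was the only member that passed the test against the vehicle animals of that time, at both doses. ND3 measured 2119.5, 1842, 2845, 2448 and 1987 CPM in vehicle animals 31, 32, 58, 59 and 60. It measured 1824, 1839.7, 1531.5, 1924 and 1652 CPM in low-dose animals 33 to 37 and 1627, 1539.8, 1973, 1842.5 and 1696 CPM in high-dose animals 38 to 42. Both dose groups overlapped vehicle animal 32, and the other vehicle animals stood above all treated animals, animals 58 and 59 furthest. The log2 fold change was -0.36 (SE 0.12, edgeR adjusted p = 0.07) at the low dose and -0.37 (SE 0.124, edgeR adjusted p = 0.0533) at the high dose. These comparisons share their vehicle animals. The mean CPM of ND3 was 2248 in those vehicle animals, and 1754 and 1736 in the low-dose and high-dose animals at 9 h. In vehicle animals at 33 h it was 1780. With all 10 vehicle animals as controls, ND3 was not called at either dose (edgeR adjusted p = 0.233 and 0.169). At the high dose ND2 was then called lower (edgeR adjusted p = 0.0885), where 18.8% of all tested transcripts were.

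With the vehicle animals at 9 h as controls, 1 of 7 transcripts was thus called lower at each dose. Of all tested transcripts, 11.3% were called lower at the low dose and 15.9% at the high dose, so 1 of 7 is close to the background share. The other 6 members had log2 fold changes from -0.31 to -0.035 at the low dose and from -0.35 to -0.12 at the high dose. ND5 was nearest to 0 at both doses, at -0.035 (95% interval -0.30 to 0.23) and -0.12 (-0.41 to 0.17). The other mitochondrial transcripts had 0 of 6 called at the low dose and 1 of 6, ATP8, at the high dose.

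These calls moved with the choice of vehicle animals. ND4, for instance, measured 8862, 9260.5, 14409, 13297 and 10737 CPM in vehicle animals 31, 32, 58, 59 and 60, so animals 58 and 59 exceeded the highest treated animal at 9 h, 10748 CPM, and animals 31, 32 and 60 did not. With animals 58 to 60 as the only controls, 4 transcripts were called lower at the low dose and 5 at the high dose, against 6.52% and 11.2% of all tested transcripts. With animals 31 and 32 alone the count was 0 at both doses, where 0.0203% and 0.167% of all tested transcripts were called lower, so that 0 of 7 is at the background share, and the median log2 fold change of the 7 was 0.059 at the low dose and -0.0093 at the high dose. Without animal 59 the count was 0 at both doses, and without animal 58 it was 0 at the low dose and 1 at the high dose. At the low dose the count was also 0 without animal 35 or 37 and 2 without animal 32. At the high dose it was 0 without animal 38 or 42, 2 without animal 31 or 32 and 3 without animal 41. Over the left-out animals, 6.46% to 14.5% of all tested transcripts were called lower at the low dose and 11.1% to 18.7% at the high dose.

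Between the doses at 9 h, 0 of 7 transcripts were called by edgeR (background 0.00%) and DESeq2 called 0 (background 0.0255%). An unadjusted p under 0.05 was found for 0 of 7 and for 638 of 19729 tested transcripts. The log2 fold changes of high over low dose were between -0.087 for ND5 (95% interval -0.26 to 0.088) and -0.014 for ND3 (-0.21 to 0.18). Between vehicle animals at 33 and 9 h, edgeR called 0 of 7 (background 0.00%). An unadjusted p under 0.05 was found for 1 of 7 and for 2311 of 19729 tested transcripts, so 1 of 7 is near the background share. DESeq2 called 1, the same transcript (1.67% of all transcripts called lower). That transcript was ND3, at a log2 fold change of -0.34 (SE 0.107, edgeR adjusted p = 0.289), whereas ND5 was at -5e-05 with a 95% interval of -0.30 to 0.30. With vehicle animals 58 to 60 alone at 9 h, 2 of 7 were called lower at 33 h, against 1.45% of all tested transcripts, and the members' median log2 fold change was -0.31. With animals 31 and 32 alone, 0 were called (background 0.00507%) and the median was 0.10, of the opposite sign.

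The change in the effect of each dose between the times was tested as an interaction. For the high dose, 2 of 7 transcripts had a more negative effect at 33 h than at 9 h (background 10.3% called lower), ND5 with a difference in log2 fold change of -0.46 (SE 0.17, edgeR adjusted p = 0.0782) and ND6 with -0.40 (SE 0.126, edgeR adjusted p = 0.0397). ND1 (-0.36, adjusted p = 0.189) and ND2 (-0.33, adjusted p = 0.272) had the same sign and did not pass, and the difference for ND3 was -0.0011 (95% interval -0.30 to 0.30). With vehicle animals 58 to 60 as the only 9 h controls 0 were called (background 7.47% called lower), and with animals 31 and 32 alone 6 were (background 6.69%). ND6 kept its call without each animal in turn, whereas ND5 lost it, leaving a count of 1, without any of animals 31, 32, 40, 41, 43, 45, 46, 54, 55, 57 and 60, with 8.42% to 11.2% of all tested transcripts called lower over the left-out animals. Of the other mitochondrial transcripts COX1 was called, 1 of 6. For the low dose, 0 of 7 were called by edgeR (background 2.39%) and by DESeq2 (background 3.92%), with differences from -0.26 for ND5 to 0.31 for ND3. An unadjusted p under 0.05 was found for 0 of 7 and for 3441 of 19729 tested transcripts.

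Ratios of TPM within a library do not depend on how libraries are scaled, and they show whether the transcripts fell in proportion. At 33 h the ratio of ND4 to ND1 was 0.787, 0.849, 0.911, 0.875 and 0.813 in vehicle animals 43 to 47 and 0.957, 0.996, 1.05, 0.979 and 0.947 in high-dose animals 53 to 57. The groups did not overlap, with a difference of 0.22 in log2 ratio (two-sided exact permutation test, p = 0.0079, the smallest that 5 against 5 animals allow, and 0.102 after adjustment over 32 tests). The ratio of ND3 to ND1 was 1.09, 1.06, 1.21, 1.03 and 1.14 in the vehicle animals and 1.25, 1.43, 1.37, 1.31 and 1.48 in the high-dose animals, again without overlap, with a difference of 0.30 (exact permutation p = 0.0079, adjusted p = 0.102). The ratio of ND4L to ND1 differed by 0.30 and overlapped in 1 vehicle animal (exact permutation p = 0.016, adjusted p = 0.102).

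Of the 32 ratio tests, made over 8 ratios and 4 dose comparisons, 0 had an adjusted p of at most 0.1. At these group sizes a ratio could not pass alone, however large its difference. Adjusted over 32 tests, the smallest possible permutation p passes only when other ratios have similarly small p-values. The count of 0 thus does not show that the ratios were unchanged, and it can change by several ratios at once. It was 6 without high-dose animal 53 at 33 h, 3 without low-dose animal 35 at 9 h or vehicle animal 45 at 33 h, and 0 without any other animal. With ratios of estimated counts in place of TPM, the same 3 ratios at the high dose at 33 h passed, each at an adjusted permutation p of 0.0847. The differences were 0.22 for ND4, 0.28 for ND3 and 0.27 for ND4L. All 3 ratios have ND1 as denominator, and ND4L and ND4 share a message, so they are not separate observations. At the low dose at 33 h the ratio of ND3 to ND1 differed by 0.21 (exact permutation p = 0.016, adjusted p = 0.102), and at 9 h it differed by -0.099 at the low dose (exact permutation p = 0.016, adjusted p = 0.102). ND3 and ND4L are the shortest of the 7, and their effective length, which enters TPM, varied between libraries: the group mean for ND4L was 118.1 nt in vehicle and 115.3 nt in high-dose animals at 33 h. Its part in the ratios of TPM was not tested.

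The remaining ratios at the high dose at 33 h overlapped those of vehicle animals. The ratio of ND2 to ND1 was 0.987 in the high-dose group and 1.01 in the vehicle group (geometric means, n = 5 each, exact permutation p = 0.222), a difference of -0.036 in log2. The light-strand transcript ND6 had a ratio to ND5, its neighbour on the other strand, of 2.76 in the high-dose and 2.79 in the vehicle group (exact permutation p = 0.817). Reads of opposite-strand RNA may enter this ratio. The ratio of ND4L to ND4 was 0.868 in the high-dose and 0.820 in the vehicle group (exact permutation p = 0.135). In the same groups the ratio to ND1 was 0.409 and 0.386 for ND5 (exact permutation p = 0.5). For ND6 it was 1.13 and 1.08 (exact permutation p = 0.27). These p-values do not show that the ratios were equal, since 5 animals a group leave differences within the spread undetected.

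**Figure D4:**
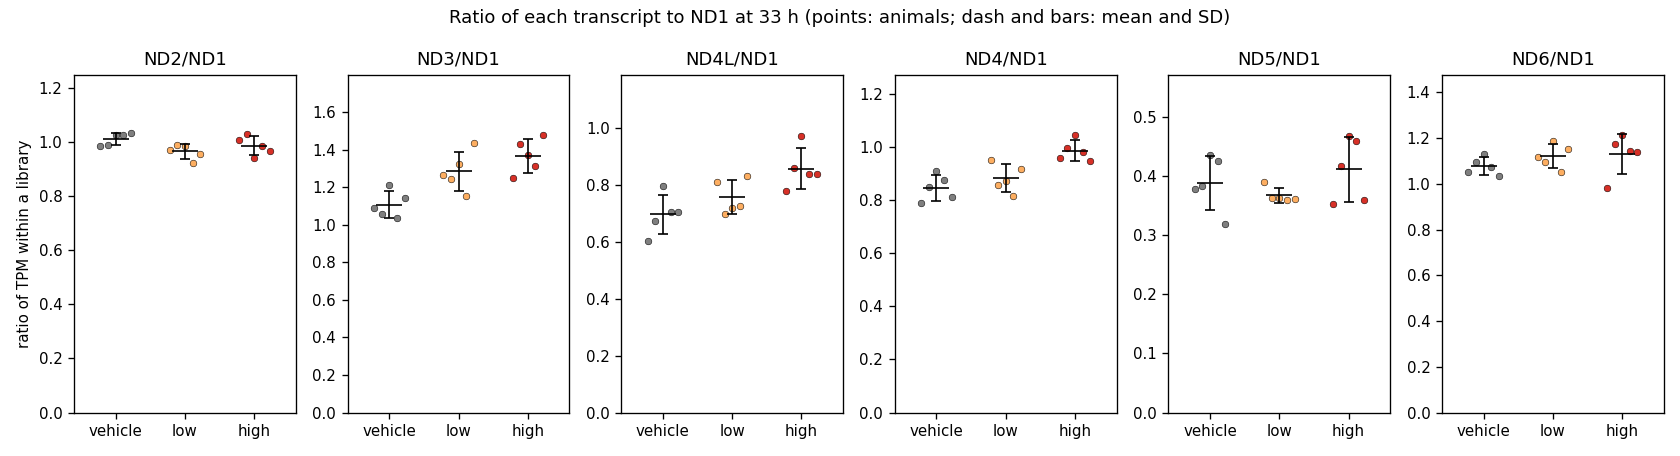
Ratio of each transcript's TPM to that of ND1 in the same library at 33 h (vertical axes from 0), with 1 point per animal and the mean and SD (n = 5) for vehicle, low-dose and high-dose animals. The high-dose animals lie above all vehicle animals for ND3 and ND4, and the groups overlap for the other 4 transcripts.

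Together the 7 transcripts took 3.925% ± 0.209 of all estimated counts in vehicle animals at 33 h, 3.45% ± 0.474 at the low dose and 2.85% ± 0.243 at the high dose (SD, n = 5). The lowest vehicle animal had 3.65% and the highest high-dose animal 3.20%, so the groups did not overlap. At 9 h the shares were 3.995% ± 0.52, 3.77% ± 0.189 and 3.65% ± 0.388 in vehicle, low-dose and high-dose animals, with vehicle animal 58 the highest of all animals at 4.82%. The share of the 7 among the counts of the 13 mitochondrial transcripts changed far less, with group means between 36.6% and 37.6%. No test was made on these sums.

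**Figure D5:**
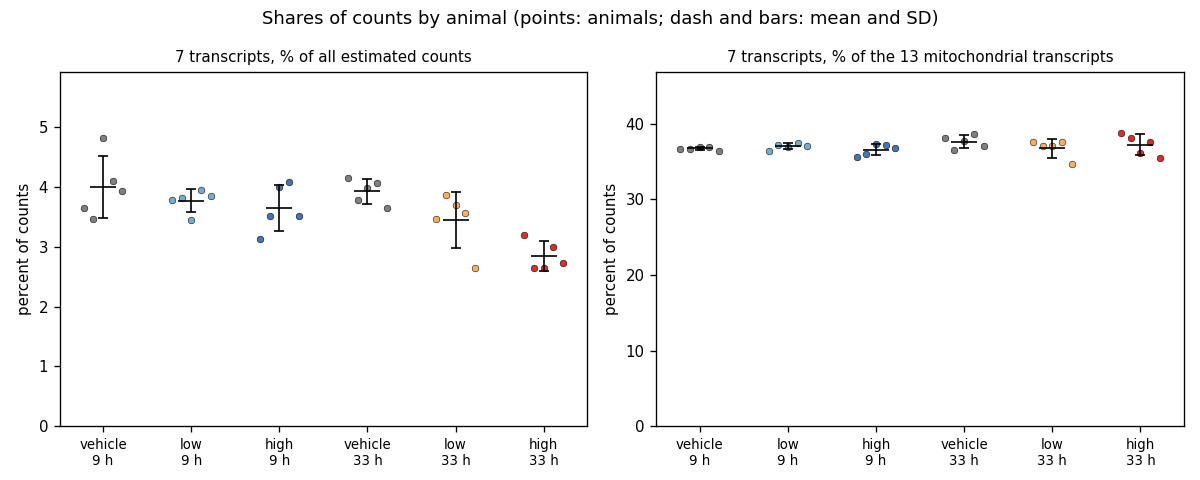
Share of the 7 transcripts in all estimated counts (left) and in the counts of the 13 mitochondrial transcripts (right), in percent from 0, with 1 point per animal and the mean and SD (n = 5). The high-dose animals at 33 h have the lowest group mean on the left, at 2.65% to 3.20%, with low-dose animal 52 at 33 h at 2.64%, and the group means on the right lie between 36.6% and 37.6%.

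The other mitochondrial transcripts were the most like the members in their variation within groups. Pearson's r with the mean log2 CPM of the 7, after each group's mean was removed, was between 0.876 for COX3 and 0.937 for COX2 over 30 animals. Outside the mitochondrial list the highest coefficients among 15330 transcripts were 0.728 for ENSCPOT00000047064.1 and 0.708 for ENSCPOT00000046264.1. Both were lower at the high dose at 33 h, ENSCPOT00000047064.1 by -0.83 (edgeR adjusted p = 0.000416) at a far lower level of 7.58 ± 1.10 CPM in vehicle and 4.27 ± 0.535 CPM in high-dose animals, and ENSCPOT00000046264.1 by -0.13 (edgeR adjusted p = 0.0219). The identity of these transcripts was not determined here.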

How the data were processed

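The 7 transcripts and the list of 6 other mitochondrial transcripts were chosen with earlier results of these data known. The authors counted 75-base paired-end reads with kallisto 0.42.4 (per the labels) against a transcriptome of the guinea pig. The deposited tables give, per animal, the estimated counts (expected counts, not normalized), the TPM (scaled for effective length and to a fixed total) and both lengths in nt. The transcriptome release was not given in the sources used here.

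The estimated counts were rounded and tested with edgeR 4.0.16 under R 4.3.3 (filterByExpr over the 6 groups, TMM scaling, glmQLFit and glmQLFTest), which kept 19729 of 25824 transcripts, with the compared groups in each fit. The study named Sleuth, which could not be run on these tables. Transcripts were called at a Benjamini-Hochberg adjusted p of at most 0.1. Printed CPM were scaled by TMM over all 30 animals. Ratios of TPM were compared by two-sided exact permutation tests (Python 3.11.15). All 7 members, the 6 other mitochondrial transcripts and the 2 other transcripts most like the members were named; single animals outside this rule were named where a value turned on them. The planned check with marker genes was not run, since no table used here matched transcripts to symbols.

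Alternatives were DESeq2 1.42.0, limma 3.58.1 on log2(TPM + 1) and log2(TPM + 0.1), RLE scaling, scaling without the 13 mitochondrial transcripts, no filter on low counts, a threshold of 0.05, a joint fit of all 30 animals, vehicle animals 58 to 60 or 31 and 32 alone at 9 h, and the omission of single animals. Library totals without TMM and all 10 vehicle animals as controls were chosen after seeing the data. The edgeR procedure was tested on simulated data.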

Additional observations from a re-analysis of the deposited data

Results flagged for a closer look

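The effect of the high dose on ND5 differed between the times, with a change in log2 fold change of -0.46 from 9 to 33 h (edgeR adjusted p = 0.0782), and that on ND6 with a change of -0.40 (edgeR adjusted p = 0.0397), both by the interaction test over 20 animals. With animals 58 to 60 as the only 9 h vehicle animals, neither transcript was called, and 7.47% of all tested transcripts were called lower.

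A sample stood apart from the other 4 of its group by Dixon's test in 2 of 96 groups of 5 values checked, where chance gives about 1 in 20. These were low-dose animal 48 at 33 h, whose ratio of ND5 to ND1 TPM was 0.389 with the next animal at 0.364, and vehicle animal 60 at 9 h, whose ratio of ND4L to ND4 TPM was 0.901 with the next animal at 0.780.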

How the results depend on the processing

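The 7 calls at the high dose at 33 h were kept in all 20 alternatives, with log2 fold changes of -0.77 to -0.28, and the ratio of the mean shares of counts of high-dose and vehicle animals at 33 h was 0.725 and, by TPM, 0.718. The other counts of members called moved as follows, with the share of all tested transcripts called lower in parentheses. For the low dose at 9 h the count was 1 (11.3%), and it was 0 at an adjusted p of 0.05 (6.51%), 0 with library totals without TMM (4.35%), 2 with DESeq2 (14.1%), 0 with the limma fits (4.96% and 4.92%), 4 with vehicle animals 58 to 60 (6.52%), 0 with 31 and 32 (0.0203%), 0 with all 10 vehicle animals (14.1%), and 0 to 2 when 1 animal was left out (6.46% to 14.5%). For the high dose at 9 h the count was 1 (15.9%), and it was 0 at an adjusted p of 0.05 (11.2%), 0 without TMM (8.51%), 4 with all 30 animals in one fit (18.8%), 2 with DESeq2 (18.4%), 0 with the limma fits (10.4% and 10.2%), 5 with vehicle animals 58 to 60 (11.2%), 0 with 31 and 32 (0.167%), and 0 to 3 when 1 animal was left out (11.1% to 18.7%). For the low dose at 33 h it was 0 (0.421%), with 1 against all 10 vehicle animals (6.79%) and 0 to 1 when 1 animal was left out (0.00% to 5.32%). For high against low dose at 33 h it was 5 (15.0%), with 2 at an adjusted p of 0.05 (11.0%), 7 with DESeq2 (16.9%), 6 with all 30 animals in one fit (15.5%), 4 without TMM (11.4%), without the filter on low counts (11.4%) or with scaling without the 13 mitochondrial transcripts (14.8%), 0 with the limma fits (11.0% and 10.9%) and 1 to 7 when 1 animal was left out (11.4% to 16.6%). For vehicle animals between times it was 0 (0.00%), with 1 by DESeq2 (1.67%) and 2 with vehicle animals 58 to 60 (1.45%). For the high-dose effect between times it was 2 (10.3%), with 1 at an adjusted p of 0.05 (6.88%), 3 without TMM (9.49%), 1 without the filter on low counts (7.74%), 0 with vehicle animals 58 to 60 (7.47%), 6 with 31 and 32 (6.69%), and 1 to 3 when 1 animal was left out (8.42% to 11.2%). For high against low dose at 9 h and the low-dose effect between times it was 0 throughout (0.00% to 0.0255% and 0.0710% to 5.41%). Of the 32 ratio tests, in which no ratio could pass alone, 0 passed, against 3 with estimated counts and 0 to 6 when 1 animal was left out. The causes of these shifts were not tested.

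Signs of values not called turned as follows in the comparisons with vehicle and in the high-dose effect between times. At the low dose at 9 h, with vehicle animals 31 and 32 as controls, ND4L was at 0.12, ND4 at 0.11, ND5 at 0.27 and ND6 at 0.059. ND5 was also at 0.093 without TMM, at 0.082 in both limma fits, and at -0.10 to 0.039 when 1 animal was left out, and ND6 at 0.0016 in both limma fits. At the high dose at 9 h, with animals 31 and 32 as controls, ND4L was at 0.095, ND4 at 0.039 and ND5 at 0.18, and ND5 was at 0.017 without TMM. At the low dose at 33 h, ND3 was at -0.11 to 0.016 when 1 animal was left out. For the high-dose effect between times, with vehicle animals 58 to 60, ND3 was at 0.12, ND4L at 0.029 and ND4 at 0.031, and ND3 was at 0.0039 with RLE scaling and with DESeq2, 0.00046 without the filter, 0.0045 with all animals in one fit and -0.093 to 0.061 when 1 animal was left out. Signs also turned in the other comparisons with 0 called. For high against low dose at 9 h all 7 members were lower in 13 of 19 alternatives, with values of -0.13 to 0.025 and a median of 0.0079 without animal 38. For vehicle animals between times all 7 were lower in 9 of 21, with values of -0.44 to 0.30. For the low-dose effect between times values ran from -0.56 to 0.42 over 31 alternatives, and the median was 0.030 and, with vehicle animals 31 and 32, -0.23.

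No paired analysis was possible because the animals' numbers are not shared between groups. The effect of depth on the calls was not tested. Groups of 5 animals limit what the tests can detect, and a vehicle group at 9 h of 2 or 3 animals has few degrees of freedom.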
